A study of Mus musculus with 16 samples.

Results

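Cd36, Slc27a2, Slc27a4, Mfsd2a, Fabp1, Fabp2 and Acsl5 encode proteins that take up long-chain fatty acids, hold them in the cytosol or activate them for use. Mfsd2a carries them as part of lysophosphatidylcholine. These 7 genes were chosen by name for those roles, with earlier results of these data known. They are 7 of the 24421 genes in the count files, and all 7 are among the 13429 genes with enough counts to be tested. Their levels come from bulk RNA-seq of epithelium that was detached with EDTA from the jejunum and ileum of wild-type C57BL6/J mice at postnatal day 6 (P6), before weaning, and at P36, after it. Each age had 4 mice, 2 female and 2 male, and both regions came from each of the 8 mice, giving 16 libraries in 4 groups of 4. Replicates 1 and 2 are the female mice of an age and replicates 3 and 4 the male mice, and a replicate number stands for 1 mouse in both regions of that age. At P6 the sample titles of replicates 1 and 3 share a code, and those of replicates 2 and 4 share a different code. The titles do not state what the code means. No treatment or mutation separates the groups. The P6 and P36 groups are different mice, and no cell type was sorted, so a bulk level cannot tell fewer cells of a type from less RNA per cell.

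Milk is rich in fat, and its triglycerides are digested in the lumen to fatty acids and monoglycerides that are taken up across the brush border. Cd36 is a scavenger receptor that binds long-chain fatty acids at the membrane, and the Slc27a genes encode fatty acid transport proteins (FATPs) that also carry acyl-CoA synthetase activity. Fatty acid binding proteins (FABPs) carry the lipids through the cytosol, and acyl-CoA synthetases trap them as acyl-CoA before they are rebuilt into triglycerides and packed into chylomicrons, mostly in the proximal small intestine.

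Total counts per library ranged from 12159237 to 25947276, and levels are given as CPM, counts scaled to a common library total with TMM factors that correct for differences in library composition. The epithelial markers Epcam, Vil1 and Cdh1 were above 752 CPM in every library, while Alpi and Krt20 of the same list varied widely. Group means of Alpi ran from 241 ± 217 CPM (SD, n = 4) in the P36 ileum to 3487 ± 443 CPM in the P6 jejunum. Those of Krt20 ran from 44.5 ± 10.7 CPM in the P6 ileum to 1912 ± 286 CPM in the P36 jejunum. The P6 ileum carried little of the ileal marker Fabp6, at 37.4 ± 34.0 CPM (SD, n = 4), against 6793 ± 2281 CPM in the P36 ileum. The ileal bile acid transporter Slc10a2 was also low there, at 2.05 ± 1.99 CPM against 310 ± 178 CPM at P36, while the ileal hormone gene Fgf15 stood at 113 ± 83.9 CPM, against 129 ± 37.0 CPM in the jejunum of that age and 28.9 ± 37.1 CPM in the P36 ileum. P6 ileum replicate 2 stood apart from the other P6 libraries by stromal genes: its summed smooth muscle and fibroblast markers (7 genes) came to 363 CPM against 4.88 to 37.0 CPM, and its summed endothelial markers (6 genes) to 39.7 CPM against 2.22 to 7.54 CPM.

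Fatty acid uptake and binding genes were higher in the jejunum at both ages, by different amounts. At P6, 6 of the 7 passed the test of jejunum against ileum (edgeR quasi-likelihood test, Benjamini-Hochberg adjusted p below 0.05 over all tested genes) and all 6 were higher in the jejunum, where 25.9% of all tested genes passed in either direction and 11.1% were higher in the jejunum. The 5 other than Acsl5 also exceeded the minimum of 2 on the log2 scale that the study required, as did 6.5% of tested genes. Their log2 fold changes ran from 0.71 for Slc27a4, which did not pass, to 7.50 for Mfsd2a, with a median of 3.65 against -0.05 over all tested genes. The 4 jejunal values lay above the 4 ileal values for all 7 genes, which was so in one direction or the other for 30.1% of tested genes. It follows that each of the 7 genes was higher in the jejunum within each of the 4 mice.

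At P36, 4 of the 7 passed, again higher in the jejunum (background 16.1% of tested genes in either direction and 8.3% higher in the jejunum), with a median log2 fold change of 1.68 against -0.04 over all tested genes. They were Cd36, Fabp1, Slc27a2 and Acsl5, and Cd36 and Fabp1 also exceeded 2 on the log2 scale (2 of 7, background 3.6%). All 7 genes were again higher in the jejunum in 4 of 4 mice, which was not counted over all tested genes. The groups did not overlap for 5 of the 7 (background 26.9%). The jejunum and ileum of a mouse deviated from their group means together, and with the mouse as a block in the fit all 7 passed, as did 18.1% of tested genes (9.84% higher in the jejunum). The 3 genes gained were Fabp2, Slc27a4 and Mfsd2a. The count was also 7 when P36 ileum replicate 1 was left out, where 19.8% of tested genes passed (10.8% higher in the jejunum).

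**Figure D1:**
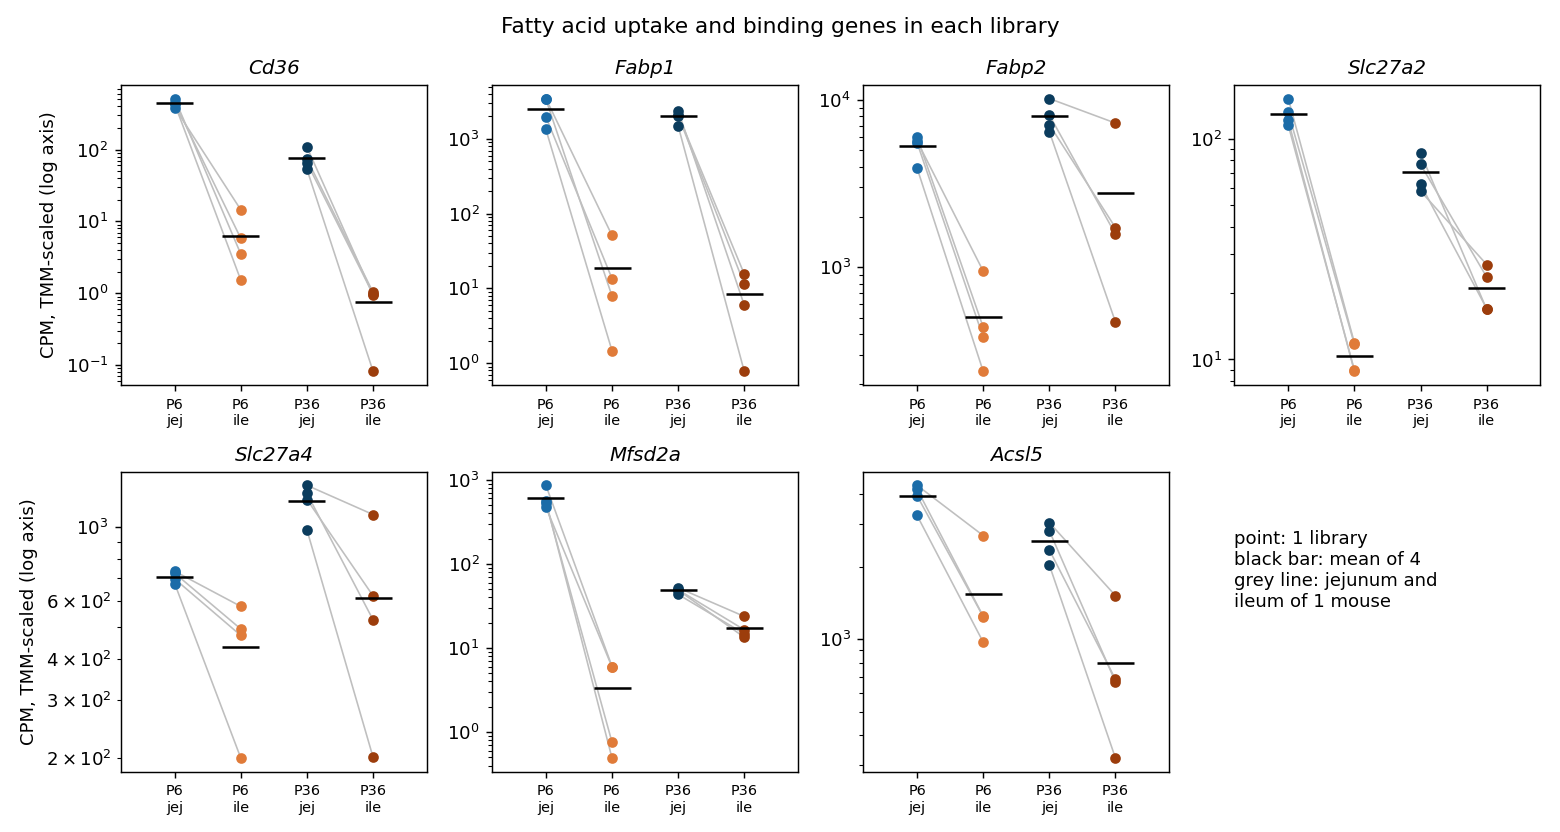
CPM (TMM-scaled, log axis) of the 7 genes in each of the 16 libraries, with 1 point per library, a black bar at the mean of 4 and a grey line joining the jejunum and ileum of 1 mouse. Every line falls from jejunum to ileum, steeply for Cd36 and Fabp1 at both ages and for Mfsd2a at P6 (603 to 3.30 CPM on average).

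Cd36 (mm10 chr5:17781690-17888959, minus strand) encodes the membrane receptor for long-chain fatty acids. In the P6 jejunum it measured 513, 384, 432 and 448 CPM in replicates 1 to 4, and in the P6 ileum 3.50, 14.5, 1.52 and 5.79 CPM. At P36 the jejunum held 108, 65.6, 53.1 and 74.0 CPM, and the ileum 0.940, 0.964, 0.0817 and 1.03 CPM, where the lowest value stood for 2 counts and the highest count was 17. The 4 groups did not overlap anywhere in this order: P6 jejunum, P36 jejunum, P6 ileum, P36 ileum.

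The jejunal mean of Cd36 was 70.3 times the ileal mean at P6 (log2 fold change 6.12, SE 0.61, edgeR quasi-likelihood adjusted p = 2.97e-06) and 99.8 times at P36 (6.71, SE 0.67, adjusted p = 6.1e-06). It fell with age in the jejunum, by 2.56 on the log2 scale (SE 0.52, edgeR adjusted p = 0.00061), and in the ileum, by 3.15 (SE 0.63, adjusted p = 0.00054). Without P6 ileum replicate 2, the library with the highest ileal Cd36 and the stromal genes, the fold change at P6 was 6.94 and that of the ileum with age was -2.34, and both still passed. Endothelium, adipocytes and macrophages can also express Cd36. The 5 adipocyte markers were at 0 in every library of the 3 groups other than the P36 ileum, where their sum was at most 0.17 CPM. The endothelial sum was 3.99 to 7.54 CPM in the P6 jejunum and 0.441 to 2.83 CPM in the P36 jejunum. Of the 5 macrophage markers, Adgre1, C1qa and C1qb stayed at or below 0.892 CPM in the P6 jejunum and Cd68 at or below 11.4 CPM, while Csf1r alone stood at 455 ± 34.4 CPM there and 2.04 ± 1.14 CPM in the P36 jejunum. The part of these cells in the level of Cd36 was not tested.

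Fabp1 (chr6:71199888-71205023, plus strand) encodes the liver-type FABP, which enterocytes of the proximal intestine also use. Its 4 values were 1982, 3473, 1342 and 3410 CPM in the P6 jejunum, and 2386, 2100, 1494 and 2052 CPM in the P36 jejunum. The P6 ileum held 13.5, 51.2, 1.46 and 7.90 CPM and the P36 ileum 5.97, 15.5, 0.776 and 11.4 CPM. The regions were far apart at both ages, while the ages overlapped within each region.

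The regional log2 fold change of Fabp1 was 7.10 at P6 (SE 1.01, edgeR quasi-likelihood adjusted p = 9.41e-05) and 7.91 at P36 (SE 1.05, adjusted p = 9.03e-05). Neither age comparison passed: the log2 change from P6 to P36 was -0.35 in the jejunum (SE 0.77, edgeR adjusted p = 0.738) and -1.15 in the ileum (SE 0.80, adjusted p = 0.237). Without P6 ileum replicate 2, its highest ileal library, the P6 regional value was 8.38 and the change in the ileum was 0.13.

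The promoters of these genes are shown because Fabp1 and Cd36 had the steepest regional differences that held at both ages, and Mfsd2a the steepest at P6 alone. Each is the window from 250 bases before to 50 bases after the start in RefSeq (GRCm38.p6, the assembly behind mm10), read 5′ to 3′ on the gene's strand. All 7 genes matched the promoter table by symbol. Capitals mark the matches to a direct repeat of the half-site AGGTCA with 1 base between (AGGTCANAGGTCA, up to 2 mismatches, both strands), a layout known to bind nuclear receptors such as the PPARs and HNF4 factors. The windows are chr6:71199629-71199928 (plus strand) for Fabp1, chr5:17835847-17836146 (minus strand) for Cd36 and chr4:122961139-122961438 (minus strand) for Mfsd2a. The Cd36 start in RefSeq lies 53063 bases inside the gene as counted in the files, at an internal start.
Fabp1: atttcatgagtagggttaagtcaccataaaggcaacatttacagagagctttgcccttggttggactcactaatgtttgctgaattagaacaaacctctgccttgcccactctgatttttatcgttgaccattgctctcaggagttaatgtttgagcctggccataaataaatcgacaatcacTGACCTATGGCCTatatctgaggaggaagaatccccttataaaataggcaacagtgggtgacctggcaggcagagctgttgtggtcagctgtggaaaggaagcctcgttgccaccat
Cd36: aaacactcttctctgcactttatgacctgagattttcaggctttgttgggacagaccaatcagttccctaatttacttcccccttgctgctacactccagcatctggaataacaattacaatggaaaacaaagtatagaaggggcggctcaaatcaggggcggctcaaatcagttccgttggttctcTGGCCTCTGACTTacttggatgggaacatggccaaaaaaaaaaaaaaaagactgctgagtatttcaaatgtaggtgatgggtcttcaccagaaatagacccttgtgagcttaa
Mfsd2a: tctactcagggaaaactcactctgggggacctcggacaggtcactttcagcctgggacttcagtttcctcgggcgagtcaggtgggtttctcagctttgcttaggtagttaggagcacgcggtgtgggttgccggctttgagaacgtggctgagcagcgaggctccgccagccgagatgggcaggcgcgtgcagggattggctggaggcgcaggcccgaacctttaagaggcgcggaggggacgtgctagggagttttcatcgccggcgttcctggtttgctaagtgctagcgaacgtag
The match in Fabp1 had 1 mismatch, lay on the opposite strand and began at position -67 relative to the start. The match in Cd36 had 2 mismatches, lay on the opposite strand and began at position -63. The windows of Mfsd2a, Fabp2, Slc27a2, Slc27a4 and Acsl5 held no such letters, and 3.86% of 32851 promoters held a match. The HNF4 core CAAAGTCCA (0.475% of promoters) and the GATA motif AGATAA (11.2%), searched on both strands without mismatches, were in none of the 7 windows. A match or its lack describes letters in these windows and was not tied to binding of any factor.

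Mfsd2a (chr4:122946851-122961188, minus strand) encodes a transporter of lysophosphatidylcholine that carries long-chain fatty acids such as docosahexaenoic acid. It measured 858, 474, 528 and 555 CPM in the P6 jejunum and 6.02, 5.95, 0.759 and 0.490 CPM in the P6 ileum, the last 2 from 14 and 10 counts. At P36 its 4 jejunal values were 52.0, 48.8, 43.4 and 49.2 CPM and its ileal values 23.7, 13.4, 14.7 and 16.5 CPM. None of the 4 groups overlapped, and the distance between the regions was much smaller at P36.

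The P6 jejunal mean of Mfsd2a was 183 times the ileal mean (log2 fold change 7.50, SE 0.66, edgeR quasi-likelihood adjusted p = 8.19e-07), and the P36 jejunal mean 2.83 times (1.50, SE 0.51, adjusted p = 0.0557). With the mouse as a block the P36 value was 1.53 with an adjusted p of 0.0496 by edgeR. It also passed without P36 ileum replicate 1 (1.70, edgeR adjusted p = 0.0465) and without any 1 of the P6 ileum libraries, which share the fit's estimate of spread (edgeR adjusted p from 0.0071 to 0.0478). From P6 to P36 jejunal Mfsd2a fell by 3.64 on the log2 scale (SE 0.54, edgeR adjusted p = 3.78e-05) and rose by 2.35 in the ileum (SE 0.54, adjusted p = 0.0016). The regional difference itself was greater at P6 than at P36 by 6.00 on the log2 scale (SE 0.76, edgeR interaction test, adjusted p = 0.00014).

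Slc27a2 (chr2:126553024-126588243, plus strand) encodes FATP2, a very long-chain acyl-CoA synthetase that also takes part in uptake. Its P6 values were 152, 121, 115 and 132 CPM in the jejunum and 11.9, 8.83, 8.95 and 11.7 CPM in the ileum. Its P36 values were 86.3, 76.7, 58.1 and 62.3 CPM in the jejunum and 16.9, 23.6, 27.0 and 17.0 CPM in the ileum. The 4 groups were separate, and the regions lay closer together at P36: lower in the jejunum and higher in the ileum than at P6.

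Slc27a2 was higher in the jejunum by 3.65 at P6 (log2, SE 0.20, edgeR quasi-likelihood adjusted p = 6.12e-09) and by 1.74 at P36 (SE 0.19, adjusted p = 1.1e-05). It fell by 0.88 with age in the jejunum (SE 0.18, edgeR adjusted p = 0.0007) and rose by 1.03 in the ileum (SE 0.18, adjusted p = 0.00021), and the regional difference was 1.91 greater at P6 (SE 0.26, interaction adjusted p = 0.00025). These calls held in each of the 16 fits that left out 1 library.

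Slc27a4 (chr2:29802680-29817522, plus strand) encodes FATP4, the FATP known for its abundance in enterocytes. In the P6 jejunum it was even across mice, at 726, 736, 698 and 676 CPM, against 492, 576, 470 and 199.9 CPM in the P6 ileum. In the P36 jejunum it measured 1340, 1266, 981 and 1213 CPM and in the P36 ileum 1093, 524, 201 and 620 CPM. The regions were separate at P6 and overlapped at P36 through ileum replicate 1.

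No comparison of Slc27a4 passed in the fit of all libraries without the block. The jejunum was higher by 0.71 at P6 (log2, SE 0.38, edgeR quasi-likelihood adjusted p = 0.187) and by 0.98 at P36 (SE 0.38, adjusted p = 0.0952). With the mouse as a block the P36 value was 1.20 with an edgeR adjusted p of 0.031, and without P36 ileum replicate 1 it was 1.42 with 0.0113. It also passed without P6 ileum replicate 4 (0.98, edgeR adjusted p = 0.0371). The log2 change with age was 0.76 in the jejunum (SE 0.38, edgeR adjusted p = 0.105), where every P36 value was above every P6 value, and 0.49 in the ileum (SE 0.38, adjusted p = 0.284). Without P36 ileum replicate 3 these were 0.76 and 0.78, and both passed (edgeR adjusted p = 0.0328 and 0.0381).

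Fabp2 (chr3:122895072-122899506, plus strand) encodes the intestinal FABP, found in enterocytes along the small intestine. It measured 5566, 6002, 3916 and 5683 CPM in the P6 jejunum and 381, 439, 239 and 949 CPM in the P6 ileum. At P36 it measured 10189, 8130, 6461 and 7121 CPM in the jejunum and 7270, 1576, 471 and 1725 CPM in the ileum. The regions were separate at P6. At P36 ileum replicate 1 lay within the jejunal range and the other 3 ileal libraries below it.

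Fabp2 was higher in the jejunum by 3.40 at P6 (log2, SE 0.64, edgeR quasi-likelihood adjusted p = 0.0011). At P36 the difference was 1.53 (SE 0.60, edgeR adjusted p = 0.0995), 2.17 with the mouse as a block (adjusted p = 0.0138) and 2.66 without ileum replicate 1 (adjusted p = 0.0013). It rose by 2.46 in the ileum from P6 to P36 (SE 0.62, edgeR adjusted p = 0.0032), which came to 1.33 without P36 ileum replicate 1 (adjusted p = 0.0185). Its value in the jejunum was 0.59 (SE 0.59, edgeR adjusted p = 0.427), where every P36 value was above every P6 value. In a fit of only the 8 jejunal libraries it was 0.60 (SE 0.18, edgeR adjusted p = 0.0114), where 70.5% of all tested genes passed.

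Acsl5 (chr19:55253369-55296628, plus strand) encodes a long-chain acyl-CoA synthetase of the enterocyte. The P6 jejunum held 3939, 4194, 3263 and 4351 CPM and the P6 ileum 1242, 1246, 973 and 2693 CPM. The P36 jejunum held 3048, 2817, 2034 and 2350 CPM and the P36 ileum 1517, 666, 322 and 682 CPM. Each region pair was separate, and the 2 ileal groups overlapped through P6 replicates 1 to 3 and P36 replicate 1.

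Acsl5 was higher in the jejunum by 1.36 at P6 (log2, SE 0.39, edgeR quasi-likelihood adjusted p = 0.0177) and by 1.68 at P36 (SE 0.39, adjusted p = 0.0077). The P6 call was lost without P6 ileum replicate 1 (adjusted p = 0.0508 by edgeR) or replicate 3 (adjusted p = 0.0522). In the ileum it fell by 0.95 with age (SE 0.39, edgeR adjusted p = 0.0471). That call held in 3 of the 16 fits that left out 1 library and in 6 of 9 other settings. Without P6 ileum replicate 4 the value was -0.53 (edgeR adjusted p = 0.202). The jejunal value was -0.62 (SE 0.38, edgeR adjusted p = 0.194), where every P36 value was below every P6 value.

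With age the 7 genes did not move as one. In the jejunum 3 of 7 passed, all lower at P36 (Cd36, Mfsd2a and Slc27a2), among 51.6% of all tested genes that passed and 26.9% that were lower. In the ileum 5 of 7 passed, with Fabp2, Mfsd2a and Slc27a2 higher and Cd36 and Acsl5 lower at P36, where 55.7% of all tested genes passed, 25.5% higher and 30.1% lower. Counts of 3 and 5 of 7 lie near these background shares. Past 2 on the log2 scale were Cd36 and Mfsd2a in the jejunum (2 of 7) and Cd36, Fabp2 and Mfsd2a in the ileum (3 of 7), where 16.4% of tested genes were past it in either region. The P6 and P36 groups did not overlap for 6 of 7 genes in the jejunum (63.8% of tested genes) and for 3 of 7 in the ileum (44.4%). The age and regional comparisons share libraries, so their values are given side by side only.

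**Figure D2:**
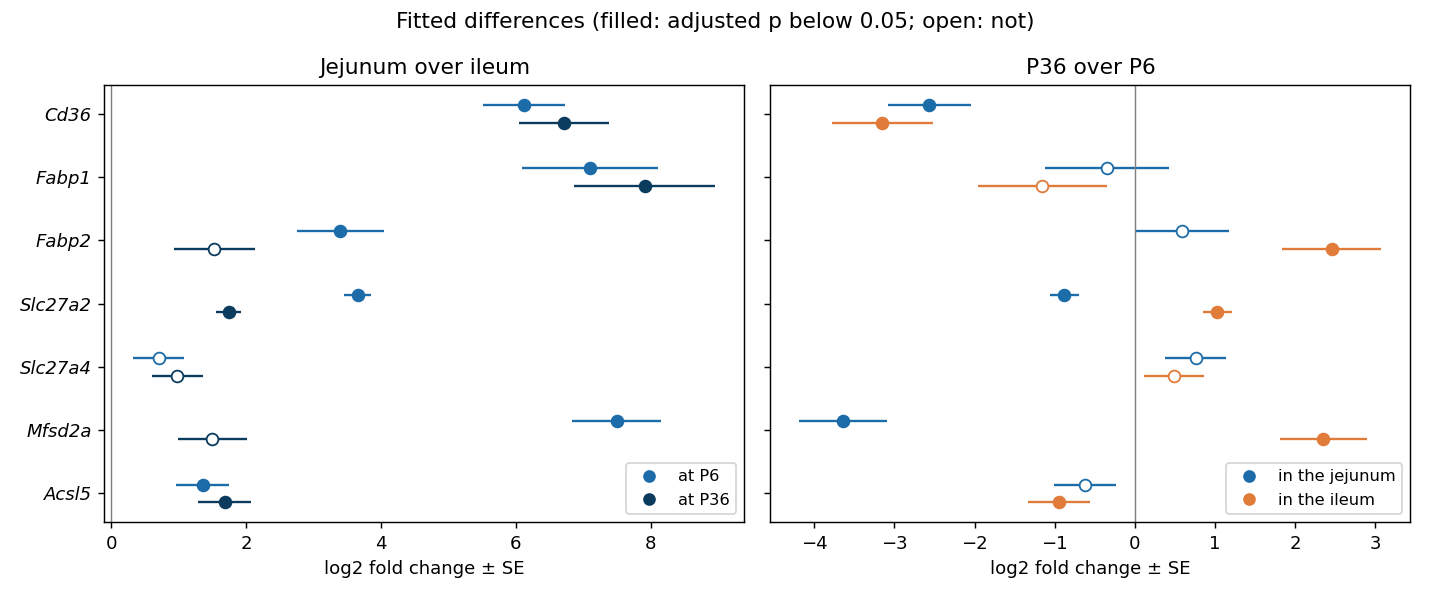
Fitted log2 fold changes (point) with SE (line) of the 7 genes for jejunum over ileum at each age (left) and P36 over P6 in each region (right), filled where the edgeR adjusted p is below 0.05. The regional values are all above 0, and Mfsd2a and Slc27a2 change in opposite directions with age in the jejunum (-3.64 and -0.88) and the ileum (2.35 and 1.03).

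The test of the regional difference at P6 against that at P36 passed for 2 of the 7 genes, Mfsd2a and Slc27a2 (8.69% of tested genes), and for Mfsd2a it exceeded 2 on the log2 scale (3.37%). Fabp2 had a value of 1.87 in the same direction (SE 0.84, edgeR adjusted p = 0.195). Cd36, Fabp1, Slc27a4 and Acsl5 had values between -0.81 and -0.27, none of which passed (edgeR adjusted p from 0.687 to 0.794).

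Divided by exon length, so that genes can be set beside each other, the mean level in CPM per kilobase was led by Fabp2 in all 4 groups, though not clearly in either region at P6. The P6 ileum held 520 ± 321 of Fabp2 (SD, n = 4) and 488 ± 248 of Acsl5, and Acsl5 was above Fabp2 in replicate 3 (309 against 248). The P6 jejunum held 5484 ± 970 of Fabp2 (SD, n = 4), 5186 ± 2156 of Fabp1 and 1249 ± 152 of Acsl5, and below them came Mfsd2a at 281 ± 80.5, Slc27a4 at 177 ± 6.83, Cd36 at 113 ± 13.6 and Slc27a2 at 56.6 ± 7.08. In the P6 jejunum Fabp1 exceeded Fabp2 in 2 of 4 libraries, replicates 2 and 4, whose sample titles share a code. The part of that grouping in the order was not tested. The Fabp1 mean was the higher one without replicate 1 (5572 against 5389) or replicate 3 (6006 against 5959). Mfsd2a was the most abundant of the 4 membrane genes per kilobase in the P6 jejunum. It was sixth of the 7 genes at P36 in the jejunum, at 22.5 ± 1.67, with Slc27a4 at 299 ± 38.7. In the ileum Slc27a4 led the membrane genes, at 108 ± 40.6 CPM per kilobase at P6 and 152 ± 92.0 at P36. Cd36 was last in the P36 ileum at 0.192 ± 0.114.

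Within their families the members took very different places by region and age. Of the summed CPM per kilobase of the 9 FABP genes, Fabp1 made up 47.1% ± 7.51 (SD, n = 4) and Fabp2 52.8% ± 7.48 in the P6 jejunum. In the P36 jejunum the shares were 33.1% ± 2.26 and 66.8% ± 2.30, and the lowest Fabp1 share among the P6 libraries, 40.2%, was above every share among the P36 libraries. Fabp6, the ileal bile acid binding protein of the same family, had 85.4% ± 10.3 in the P36 ileum, against 14.4% ± 10.4 for Fabp2 and 0.105% ± 0.0886 for Fabp1.

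The P6 ileum was unlike either. Its summed FABP level was 640 ± 264 CPM per kilobase, against 10675 ± 3014 in the jejunum of the same age and 16204 ± 7262 in the P36 ileum, and its highest library (1016) lay below the lowest of any other group (6791). Fabp2 made up 76.7% ± 14.7 of this small sum, Fabp6 15.5% ± 16.4 and Fabp1 6.19% ± 7.70. The Fabp1 share was 17.4% in replicate 2, the library with the stromal genes, and averaged 2.46% ± 2.29 over the other 3. The Fabp6 share was 21.0%, 3.56%, 36.2% and 1.18% in replicates 1 to 4. The higher values lay in replicates 1 and 3, whose sample titles share a code. Without replicate 3 the share averaged 8.58% ± 10.8. Both alternatives were chosen after the values were seen. Without division by length the order of the 3 genes in each group was the same.

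**Figure D3:**
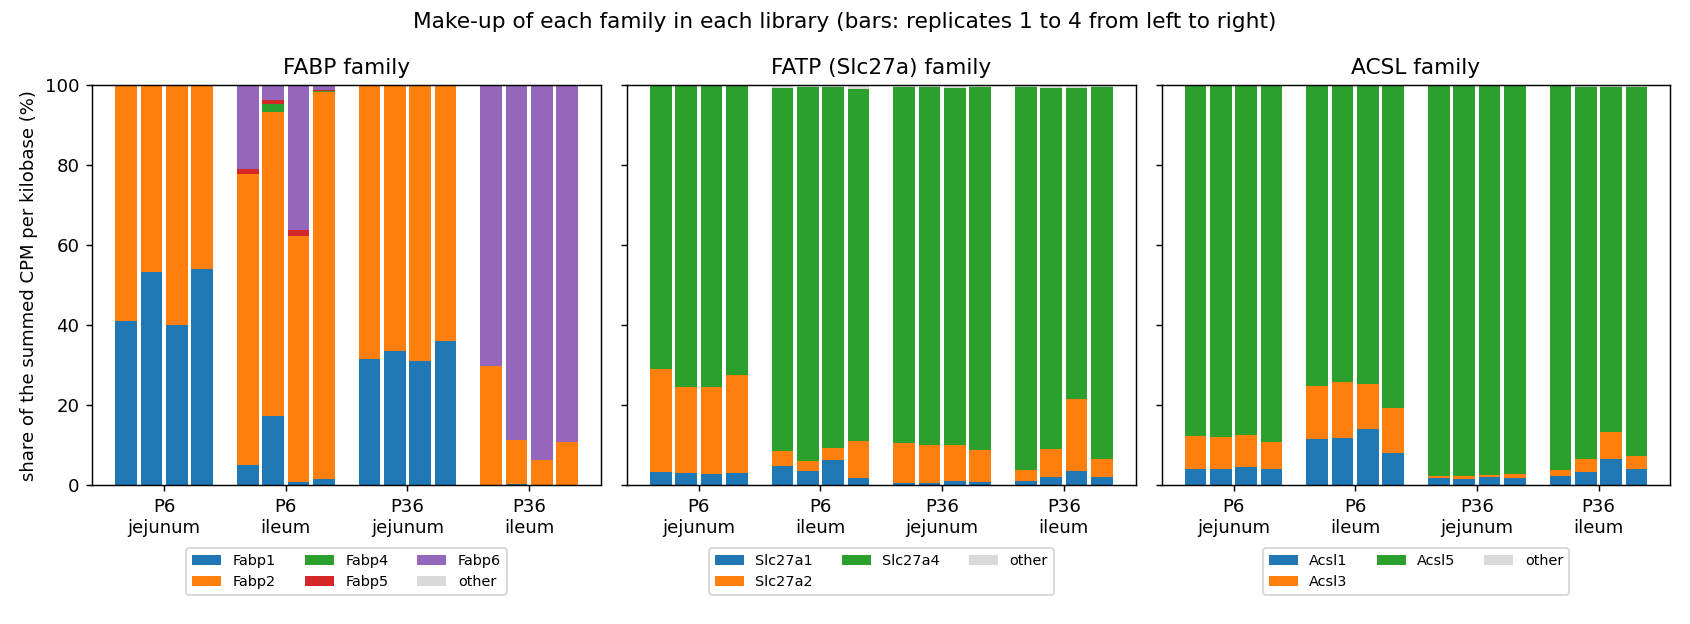
Share (%) of each gene in the summed CPM per kilobase of its family in each library, for the FABP, FATP and ACSL families, with bars for replicates 1 to 4 from left to right in each group and grey for genes below 1% everywhere. Fabp1 and Fabp2 fill the jejunal FABP bars, Fabp6 makes up 85.4% of the P36 ileum on average, and Slc27a4 and Acsl5 lead their families in all 16 libraries.

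Slc27a4 made up most of the 6 FATP genes in each group, with 73.3% ± 2.27 of the summed CPM per kilobase in the P6 jejunum and 89.2% to 90.6% on average in the other 3 groups. Slc27a2 had 23.4% ± 2.13 in the P6 jejunum, its largest share, and 9.18% ± 0.788 in the P36 jejunum, 8.06% ± 6.97 in the P36 ileum and 4.58% ± 3.00 in the P6 ileum. Among the 5 ACSL genes Acsl5 had 88.1% ± 0.725 of the jejunal sum at P6 and 97.4% ± 0.218 at P36. Its share was 76.0% ± 3.01 in the P6 ileum, where Acsl3 and Acsl1, which serve lipid droplet formation and fatty acid activation in many tissues, had 12.4% ± 1.42 and 11.4% ± 2.48. It was 91.8% ± 4.08 in the P36 ileum.

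The ratio of the highest to the lowest library was larger in the ileum than in the jejunum for all 7 genes at both ages. In the P36 ileum the highest library was 15.4 times the lowest for Fabp2, 5.43 times for Slc27a4 and 4.72 times for Acsl5, against 1.58, 1.37 and 1.50 times in the P36 jejunum. Replicate 1 was the highest of the P36 ileum for 4 of the 7 genes (Fabp2, Slc27a4, Mfsd2a and Acsl5) and replicate 3 the lowest for 5 (Cd36, Fabp1, Fabp2, Slc27a4 and Acsl5), while Slc27a2 was highest in replicate 3 and lowest in replicate 1. Gata4, a transcription factor of the proximal small intestine, was highest in replicate 1 and lowest in replicate 3. It stood at 31.6, 5.56, 0.735 and 2.30 CPM in replicates 1 to 4. The ileal gene Fabp6 had the same highest and lowest library, at 9114, 6647, 3727 and 7683 CPM. The summed enterocyte markers (5 genes) were likewise highest in replicate 1 and lowest in replicate 3, at 11290, 6456, 4719 and 7398 CPM in replicates 1 to 4, while the summed crypt markers were highest in replicate 3 at 1145 CPM, against 483 to 858 CPM. The part of enterocyte content in these values was not tested. The P36 jejunum had the same mice in the same places, with replicate 1 highest and replicate 3 lowest for all 7 genes.

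Among P6 ileum libraries, replicate 4 had the highest Fabp2 and Acsl5 and the lowest Slc27a4 and Mfsd2a, with Gata4 at 34.7 CPM against 8.98, 18.4 and 3.25 CPM in replicates 1 to 3. Its enterocyte sum was 4874 CPM against 6806 to 7236 CPM in the other 3, and its crypt sum 538 CPM against 221 to 355 CPM. Replicate 3 was the lowest for Cd36, Fabp1, Fabp2 and Acsl5. The part of cell content, or of the position of the segment along the gut, in these values was not tested.

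The genes with the profile most like each member over the 16 libraries were sought by the root mean square difference of centred log2 CPM, a description without a test over libraries that share region and age. Adora2b, an adenosine receptor, lay nearest to Cd36 at 0.59, followed by 5930403L14Rik at 1.14 and Leap2, an antimicrobial peptide, at 1.16. At P6 Adora2b averaged 81.4 and 1.25 CPM in jejunum and ileum, and at P36 it averaged 17.2 and 0.160 CPM, the same order of groups as Cd36. Cd36 itself was nearest to Fabp1 at 1.48, with Onecut2 at 1.59 and Adora2b at 1.67.

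Acsl5 lay nearest to Mttp, the microsomal protein that loads triglyceride onto nascent lipoproteins, at 0.29, followed by Entpd7 at 0.31 and Osbpl6 at 0.31. Nearest to Slc27a4 were Slc9a3r1, a scaffold of the brush border, at 0.25, B4galt5 at 0.26 and Itga2b at 0.27. Fabp2 had H2-Q1 at 0.44, Gda at 0.49 and Ltb4r1 at 0.53. Slc27a2 had Sec24d, a coat protein of vesicles leaving the endoplasmic reticulum, at 0.52 and Cgref1 at 0.55. Mfsd2a had Pdia2 at 1.08, Cntnap1 at 1.29 and Ltc4s, the leukotriene C4 synthase, at 1.35. Of the 7 genes only Fabp1 had a farther nearest gene, at 1.48.

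Beyond the 7 genes, a list of 88 other genes of fatty acid handling, also chosen with earlier results known, was read in the same fit. All 88 were in the files, and 71 of them were tested. Between the regions 24 passed with the higher level in the jejunum and 8 with the higher level in the ileum at P6 (32 of 71, where 25.9% of all tested genes passed and 11.1% were higher in the jejunum). At P36 they were 22 and 7 (29 of 71, where 16.1% passed and 8.3% were higher in the jejunum). The median log2 fold change over the 71 was 0.41 at P6 and 0.32 at P36. Of these genes 19 passed at both ages, all 19 in the same direction. The share of all tested genes that did so was not counted, so this is not set against a background.

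Of the 19 tested genes that rebuild and export fat, 10 passed in favour of the jejunum and 1 in favour of the ileum at each age. Of all tested genes 11.1% at P6 and 8.3% at P36 passed in favour of the jejunum. Apoa4, a chylomicron apolipoprotein, was higher in the jejunum by 3.25 at P6 and 5.05 at P36 on the log2 scale (edgeR quasi-likelihood adjusted p = 0.0019 and 0.00018). Mttp was higher by 2.04 and 1.79 (edgeR adjusted p = 0.00058 and 0.0026). Agpat3, an acyltransferase of phospholipid synthesis, was higher by 2.16 and 2.04 (edgeR adjusted p = 1.82e-05 and 6.11e-05), and Dgat2, which makes triglyceride, by 1.90 and 1.38 (adjusted p = 0.0018 and 0.0209). Agpat6, a glycerol-3-phosphate acyltransferase, was the 1 gene of this group that passed in favour of the ileum (-0.62 and -0.91, edgeR adjusted p = 0.00075 and 4.22e-05).

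Of the 8 other binding proteins tested, 2 passed in favour of each region at either age. Over all tested genes 25.9% at P6 and 16.1% at P36 passed in either direction, and 11.1% and 8.3% in favour of the jejunum. Scp2, a sterol and acyl-CoA carrier, and Acbd4, an acyl-CoA binding protein, were higher in the jejunum at P6 (1.57 and 2.10 on the log2 scale) and at P36 (1.03 and 1.36). Fabp6 was higher in the ileum by far, at -6.51 at P6 and -10.23 at P36 (edgeR adjusted p = 0.00021 and 1.18e-05). Among thioesterases, which release fatty acids from acyl-CoA, 7 of 12 were higher in the jejunum at P6 (background 11.1%) and 3 at P36 (background 8.3%). In the ileum 1 was higher each time. Acot12, a cytosolic acetyl-CoA thioesterase, had 6.15 and 5.14 (edgeR adjusted p = 9.28e-06 and 6.99e-05), the largest jejunal excess of the 71.

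Of 10 other membrane uptake genes, the jejunum was higher for 2 at P6 (background 11.1%) and 1 at P36 (background 8.3%). The ileum was higher for 1 and 0. These counts lie near the shares of all tested genes that passed in either direction, 25.9% and 16.1%. The 1 gene higher in the jejunum at P36 was Slc27a5, a bile acid and very long-chain acyl-CoA synthetase. Its jejunal and ileal means were 1.22 and 0.114 CPM (log2 fold change 3.38, edgeR adjusted p = 0.00042). Of the 5 other synthetases tested, the jejunum was higher for 1 at P6 (background 11.1%) and 2 at P36 (background 8.3%). The ileum was higher for 2 at P6 and 1 at P36. Of the 17 receptors and regulators, Gata4 was higher in the jejunum by 3.28 at P6 and 4.17 at P36 (edgeR adjusted p = 0.0084 and 0.0037), and Ffar4, a receptor for long-chain fatty acids, was higher in the ileum (-2.14 and -2.03, adjusted p = 5.24e-05 and 0.0001).

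**Figure D4:**
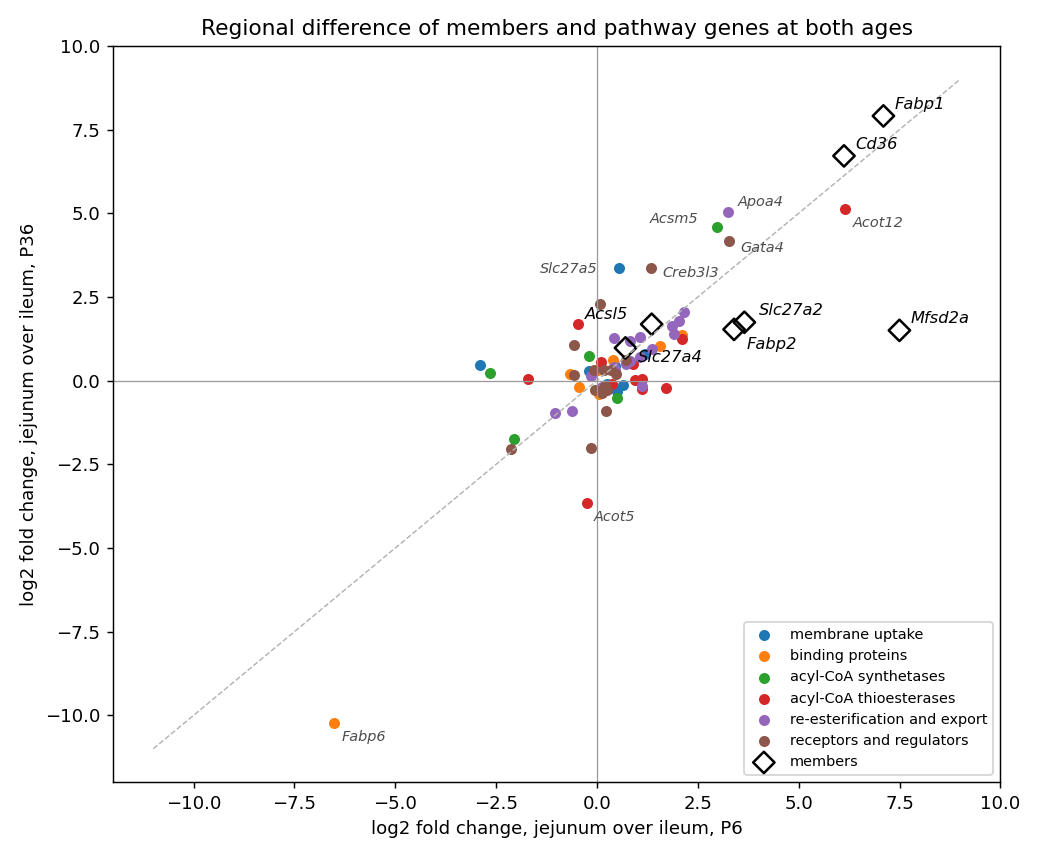
Log2 fold change of jejunum over ileum at P6 (x axis) against that at P36 (y axis) for the 7 genes (diamonds) and 71 other fatty acid genes coloured by role, with the dashed line at equal values. Fabp1 and Cd36 lie far out near the line, Mfsd2a lies far to the right of it (7.50 against 1.50), and Fabp6 lies at the opposite corner (-6.51 and -10.23).

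With age, 21 of the 71 rose and 25 fell in the jejunum, where 51.6% of all tested genes passed and 26.9% were lower. In the ileum 22 rose and 23 fell, where 55.7% passed and 30.1% were lower. In the group for re-esterification and export 9 of 19 fell in each region, while 4 rose in the jejunum and 5 in the ileum, among them Dgat1, the other enzyme of the last step to triglyceride, by 1.62 and 1.36 (edgeR adjusted p = 0.000105 and 0.000445), which was named after its values were seen. Among those that fell were Plin2, the coat protein of lipid droplets, at a log2 change of -3.69 in the jejunum and -3.47 in the ileum (edgeR adjusted p = 3.81e-10 and 8.56e-10) and Dgat2 at -3.70 and -3.19. Of the 5 other synthetases 2 fell in each region, and 3 rose in the jejunum (Acsl4 by 2.22, Acsm3 by 2.45 and Acsm5 by 4.94) and 2 in the ileum (Acsm3 by 2.16 and Acsm5 by 3.32). Acsl3 had a log2 change of -4.38 and -3.36 and Acsl1 of -1.93 and -2.87 in the jejunum and ileum (edgeR adjusted p at most 1.01e-07 for each). Of the regulators, Ppard, a nuclear receptor for fatty acids, rose by 2.80 and 3.32 (edgeR adjusted p = 0.00015 and 3.24e-05), and Prdm1, a transcriptional repressor known for keeping the suckling type of epithelium, had -4.98 and -5.72 (adjusted p = 6.37e-09 and 2.26e-09).

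The difference between regions changed with age for 12 of the 71 genes (8.69% of all tested genes). The signed jejunum-over-ileum value was higher at P6 for 4 and higher at P36 for 8, which does not rank the size of the gap. Nr1h4, the bile acid receptor FXR, had -0.15 at P6 and -2.03 at P36, a value at P6 minus P36 of 1.88 (edgeR interaction adjusted p = 7.2e-06). Acsl4, which prefers arachidonic acid, had -2.64 at P6 and 0.23 at P36, a value at P6 minus P36 of -2.87 (edgeR interaction adjusted p = 0.00088).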

How the data were processed

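RNA of EDTA-released epithelium from a jejunal and an ileal segment of 4 P6 and 4 P36 wild-type C57BL6/J mice was sequenced as stranded mRNA libraries. The authors deposited raw counts per gene and library. Per the labels and the methods, reads were trimmed with Trimmomatic 0.38, aligned to mm10 with STAR and counted as read pairs on exons with the reverse strand setting of featureCounts (Subread 1.6.3). The STAR version is 2.5.3 in the submitters' processing notes and differs in the methods.

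Genes kept by filterByExpr (13429 of 24421) were scaled with TMM factors and tested by quasi-likelihood in edgeR 4.0.16 (R 4.3.3) in 1 fit of 16 libraries with 4 group means, for region at each age, age in each region and the interaction (regional difference at P6 minus that at P36). p-values were Benjamini-Hochberg adjusted over all tested genes, and a gene passed below 0.05. The authors' minimum of an absolute log2 fold change above 2 was a second rule. The procedure was tested on simulated data. CPM used TMM-scaled totals, log2 CPM a prior count of 2, and CPM per kilobase the exon length in the files. Shallower libraries (12159237 counts at the lowest) are less precise for low genes.

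The labels tie both regions to 1 mouse. Same-mouse deviations correlated at 0.157 to 0.391 at P6 and 0.240 to 0.347 at P36 across genes. Those of different mice ran from -0.284 to 0.120 at P6 and from -0.367 to 0.232 at P36. Centring on group means pulls the average for different mice below 0 (-0.106 and -0.101), so these averages are no separate evidence. The fit with the mouse as a replicate block is given where it changes a call. Age comparisons with the mouse used limma-voom (limma 3.58.1) with a random effect. No replicate pair was a copy (chi-square per gene 13.2 to 272).

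The 7 genes, the list of 88 others (90 names, of which Gpat3 and Gpat4 are newer symbols of Agpat9 and Agpat6) and the marker lists were chosen with earlier results of these data known. Other pathway genes named are up to 3 per role and comparison that passed, with the smallest adjusted p, and for each member the 3 nearest profiles and family members with at least 5% of a family. Alternatives were DESeq2 1.42.0, other scaling, filters, samples, sex, thinning and leaving out each library. Protein sequences were not used here. A result under these rules is not reported here.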

Additional observations from a re-analysis of the deposited data

Results flagged for a closer look

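Among the 28 sets of 4 values (7 genes in 4 groups), 2 held a library far from the others by Dixon's test, where chance gives about 1 in 20. Cd36 was lowest in P36 ileum replicate 3, at 0.0817 CPM from 2 counts, against 0.940 to 1.03 CPM in the other 3 libraries. Acsl5 was highest in P6 ileum replicate 4, at 2693 CPM, against 973 to 1246 CPM.

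The regional difference (log2, jejunum over ileum) at P6 exceeded that at P36 for Slc27a2 by 1.91 and for Mfsd2a by 6.00, by the edgeR interaction test (adjusted p = 0.00025 and 0.00014). Without each library in turn the value of Mfsd2a stayed between 5.64 and 6.45 and that of Slc27a2 between 1.78 and 2.03, and every adjusted p was at most 0.0011.

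Other fatty acid genes passed the same test with a value above 0 (a higher jejunum-over-ileum value at P6 than at P36): Got2 at 0.77, Acot1 at 1.92, Acot4 at 0.94 and Nr1h4 at 1.88. Values below 0 were found for Slc27a5 at -2.83, Cav1 at -3.37, Acsl4 at -2.87, Acsl1 at -0.93, Acot9 at -1.77, Acot6 at -2.16, Hnf4g at -1.62 and Ppargc1a at -2.21. Cav1, a gene of caveolae in endothelium and stroma, averaged 9.85 CPM in the P6 ileum, whose replicate 2 held the stromal genes, and 1.32 to 4.29 CPM in the other groups. The part of stromal cells in that value was not tested. Slc27a5 averaged at most 1.22 CPM in any group. The call was lost under 1 alternative for Acsl1, 7 for Got2 and for Ppargc1a, 9 for Slc27a5 and for Acot1, and 10 for Cav1.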

How the results depend on the processing

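The regional calls of Cd36, Fabp1 and Slc27a2 at both ages, of Fabp2 and Mfsd2a at P6 and of Acsl5 at P36 passed under every alternative, as did the age calls of Cd36, Slc27a2 and Mfsd2a in both regions and of Fabp2 in the ileum and both interaction calls. The count of members that passed between the regions at P36 was 4, and 7 with the mouse as a replicate block. Leaving out 1 library gave 4 to 7, the latter without P36 ileum replicate 1. Requiring an absolute log2 fold change above 2 left 2 there, 3 in the ileum with age and 1 for the interaction. In a fit of only the 8 jejunal libraries 6 members passed with age, in place of 3, adding Fabp2, Slc27a4 and Acsl5, where 70.5% of all tested genes passed. The block changed no other call of the 7 genes. DESeq2 also passed Fabp2 (adjusted p = 0.0345) and Mfsd2a (0.0256) at P36. A few values that did not pass changed sign when 1 library was left out. Without P6 ileum replicate 2 they were the interaction of Cd36 (-0.93 to 0.22 over all libraries left out), that of Fabp1 (-1.33 to 0.47) and the change of Fabp1 in the ileum (-1.64 to 0.13). The interaction of Slc27a4 ran from -0.71 to 0.024, with the latter without P36 ileum replicate 3, and that of Acsl5 from -0.84 to 0.090, with the latter without P6 ileum replicate 4. With the fold change minimum, the other fatty acid genes that passed numbered 13 and 12 between the regions at P6 and P36 (6.5% and 3.6% of all tested genes). With age they numbered 22 in the jejunum and 21 in the ileum (16.4% of all tested genes in each), and for the interaction 5 (3.37%). Their interaction count of 12 ranged from 6 to 19 when 1 library was left out, with 19 without P6 ileum replicate 4, 6 without P36 jejunum replicate 1 and 7 without P6 jejunum replicate 1 or 4 or P36 ileum replicate 2. The cause of these shifts was not tested. Depth limits Cd36 in the P36 ileum, where 4 libraries held 49 counts in all.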

Other observations

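Fabp4, the FABP of adipocytes and endothelium, had too few counts to be tested. It reached 163 counts in P6 ileum replicate 2, the library with the stromal genes, where it made up 1.83% of the summed FABP level per kilobase.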
